A study of Mus musculus with 6 samples.

Results

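The genes of the cytosolic ribosomal proteins were compared between zinc-deficient and control mice in RNA from the nasal septum. Members were the genes whose name is Rpl or Rps followed by digits and at most 1 letter and 1 further digit, together with Rplp0, Rplp1, Rplp2 and Rpsa. The rule found 83 of the 41709 genes listed, 51 of the large subunit and 32 of the small subunit. The zinc-deficient group (ZnD, 3 libraries, replicates 4, 5 and 6) came from mice fed a diet deficient in zinc, started at 4 weeks of age and ended at 8 weeks. The Control group (3 libraries, also numbered 4, 5 and 6) came from mice given a diet with sufficient zinc over the same weeks. The labels name no strain, allele or other agent for either group. Each library was made from the posterior septum with mucosa and bone in 1 piece, so epithelium, glands, bone and marrow share a library, and fewer cells of a type cannot be told apart from less RNA per cell. Whether every library is its own animal is not stated in the labels, and p-values therefore reflect library-to-library spread, which may be technical.

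A cytosolic ribosome is built from a small subunit, which reads the mRNA, and a large subunit, which joins amino acids. Each subunit carries its own set of proteins beside its ribosomal RNA, and nearly every protein is present in a single copy per ribosome, so cells make the proteins of both subunits in matched amounts. Most of these mRNAs begin with a C followed by a run of pyrimidines, the terminal oligopyrimidine or TOP sequence, through which the kinase mTOR and the RNA-binding protein LARP1 adjust their translation. That adjustment acts on the use of the mRNA and need not show in RNA levels, which are what was measured here. Several ribosomal proteins hold a bound zinc ion, among them those of Rpl37, Rpl37a, Rps27 and Rps29.

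Start sequences are shown for 4 members with a TOP sequence at the annotated start, since this feature is what the family is best known for. The 3 shown without one are the members with separate diet ranges that were lower in ZnD. Rpl13a, separate and higher in ZnD, had no TOP at its annotated start either and is not shown. The sequences are from RefSeq on GRCm38.p6, 5′ to 3′ on the gene's strand, with 15 bases before the annotated start and 15 from it on. Capitals mark the C at the start and the unbroken run of C and T after it, or, for Rpl26, a match to CCGGAAG.
Rps6 (chr4:86857353-86857382, minus strand): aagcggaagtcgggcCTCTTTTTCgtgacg
Rpl28 (chr7:4792950-4792979, plus strand): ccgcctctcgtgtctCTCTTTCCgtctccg
Rplp2 (chr7:141447636-141447665, plus strand): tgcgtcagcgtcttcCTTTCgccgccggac
Rpl38 (chr11:114668565-114668594, plus strand): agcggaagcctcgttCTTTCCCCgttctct
Rpl26 (chr11:68901551-68901580, plus strand): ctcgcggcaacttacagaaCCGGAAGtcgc
Rpl37 (chr15:5116598-5116627, plus strand): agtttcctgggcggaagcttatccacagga
Rpl22l1 (chr3:28805493-28805522, plus strand): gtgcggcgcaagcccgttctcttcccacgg

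RefSeq promoter windows were found for 63 of the 83 genes, with 75 windows in all. A C at the annotated start followed by at least 4 C or T, read on the gene's strand, was present in 13 of the 75 windows (17.3%), against 823 of 32851 windows of all genes (2.51%). The letters CCGGAAG, the core bound by ETS factors, were present on either strand in 27 of the 75 windows (36.0%), against 8.86% of all windows. The same letters read on the other strand begin with CTTCC, which can also meet the TOP rule. Where no TOP was found, only the letters at the annotated start are concerned, and an annotated start a few bases off would hide one. The 13 genes with a TOP at an annotated start had a median log2 fold change of 0.043 between the diets, and the 47 other matched and tested genes had a median of 0.0048.

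ZnD replicate 4 stood apart from the other ZnD libraries in many members, and for many named genes values are given with and without it. No ribosomal protein gene differed between the diets past the test, and the counts of large over small subunit genes averaged 1.53 in both. Of the 80 members tested, 0 passed an adjusted p of 0.05 in edgeR's quasi-likelihood test, where 22 of all 18427 tested genes did (0.119%). An unadjusted p under 0.05 was found for 4 of the 80 (5%), against 12.9% of all tested genes. DESeq2 called 0 members and had 6 at an unadjusted p under 0.05, limma-voom called 0 and had 5, and limma on RPKM values called 0 and had 3. For these methods the share of all genes at that p was not counted, and the 12.9% is that of edgeR. The median log2 fold change, ZnD over Control, was 0.045 over the 80 members, with 46 positive and 34 negative, and −0.0020 over all tested genes. It was 0.050 over the 48 large subunit genes tested and 0.029 over the 32 small subunit genes. The lowest was −0.56 (Rpl22l1), and 71 of the 80 lay within 0.3 of 0. The remaining 3 members, Rpl10l, Rpl39l and Rpl3l, had between 0 and 4 counts in a library and were not tested.

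**Figure D1:**
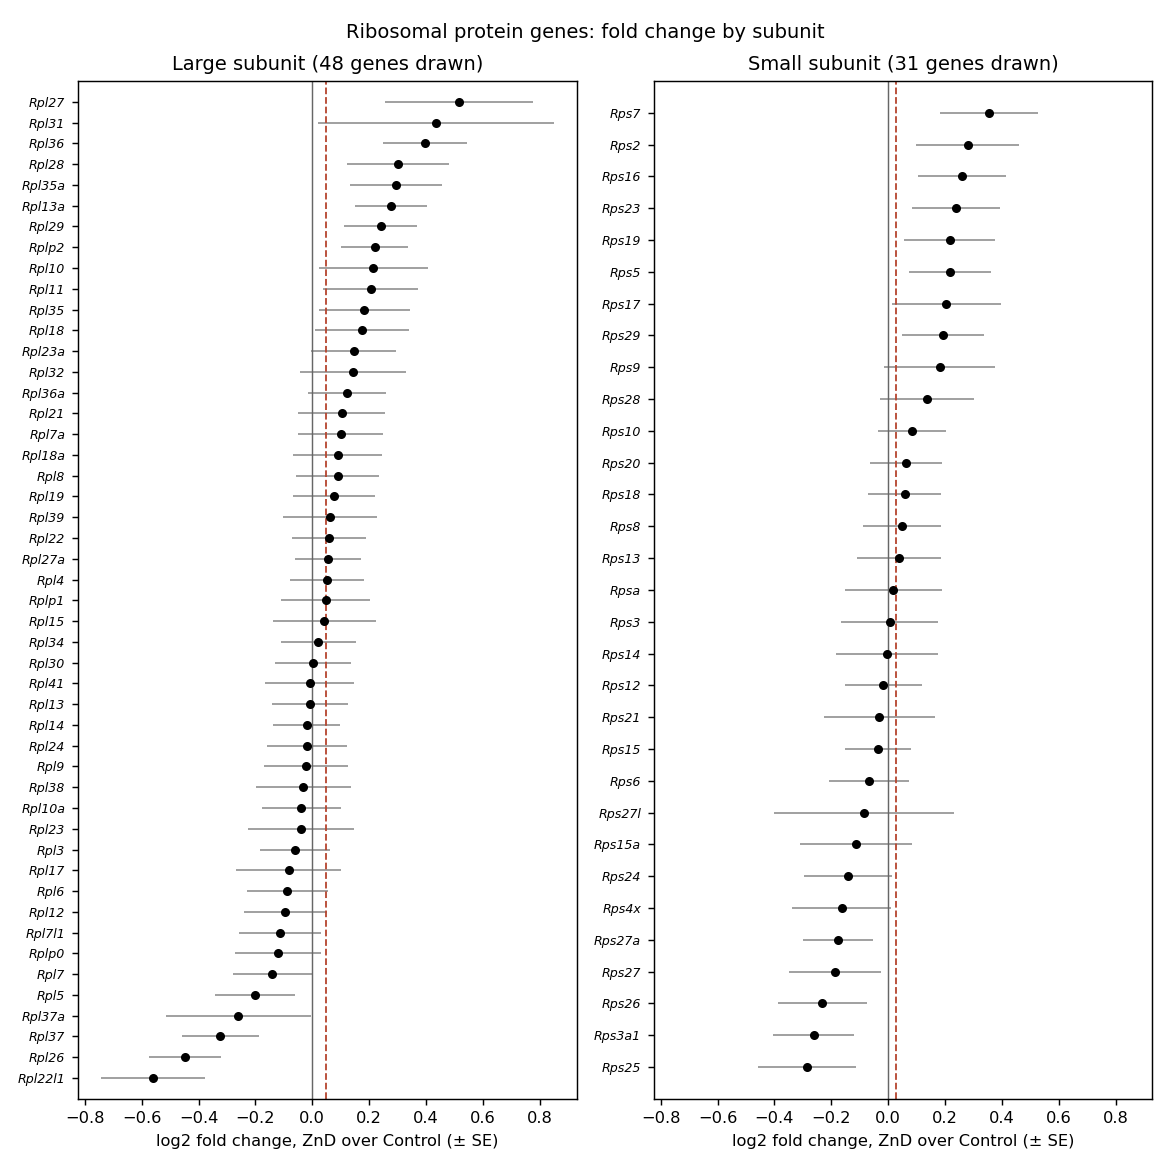
The log2 fold change of 79 of the 80 tested ribosomal protein genes, ZnD over Control, is plotted as a point with its standard error, for the large subunit at left and the small subunit at right, with the solid line at 0 and the dashed line at the median of all tested genes of the subunit (0.050 and 0.029). Both subunits lie around 0, with Rpl22l1 lowest at −0.56 and Rpl27 highest of those drawn at 0.52.

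The share of all counts in these genes was 0.984, 1.10 and 1.14% in ZnD replicates 4, 5 and 6, against 1.09, 0.970 and 1.03% in Control replicates 4, 5 and 6. The ranges overlapped, with means of 1.08 ± 0.083% in ZnD and 1.03 ± 0.062% in Control (SD, n = 3 each; two-sided exact permutation test, p = 0.4, where 0.1 is the smallest p that 3 against 3 libraries allow). Large subunit genes had 1.55, 1.50 and 1.54 counts for each small subunit count in ZnD, against 1.53, 1.54 and 1.53 in Control. These ratios averaged 1.53 ± 0.026 in ZnD and 1.53 ± 0.0095 in Control (SD, n = 3 each; exact permutation test, p = 0.9). Per length, from summed RPKM, the ratio was 1.71 ± 0.074 in ZnD and 1.69 ± 0.020 in Control (SD, n = 3 each; exact permutation test, p = 0.7). The ZnD libraries thus spanned a wider range of ratios than the Control libraries on both scales, and the 2 diets overlapped on both.

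**Figure D2:**
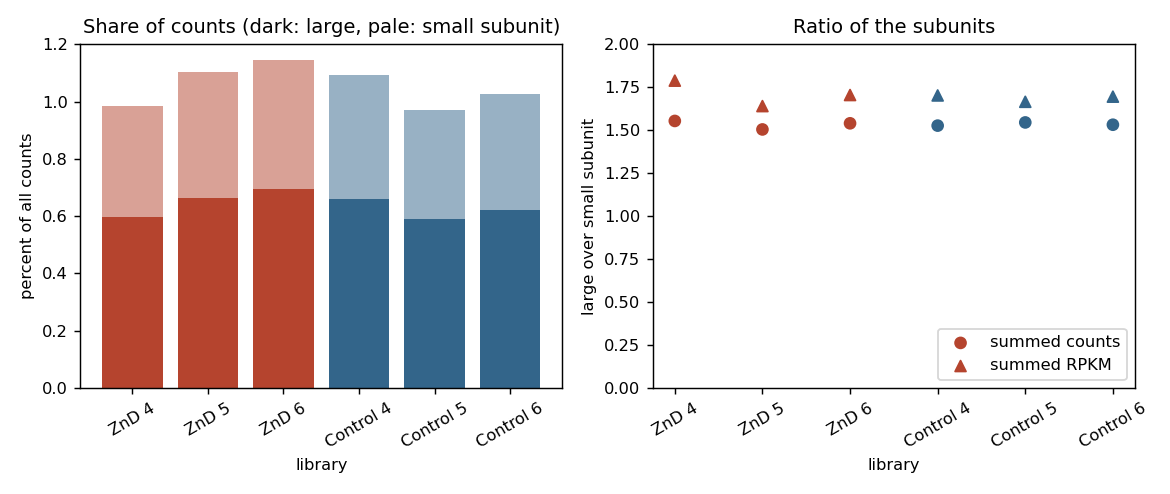
The left panel plots the percent of each library's counts in ribosomal protein genes as bars, large subunit dark and small subunit pale, and the right panel plots the ratio of large to small subunit per library from summed counts (circles) and summed RPKM (triangles), with ZnD in red and Control in blue. Shares lie between 0.970 and 1.14%, and count ratios between 1.50 and 1.55.

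Levels per gene length differed widely among the members, and the order was set in part by the gene models. By mean RPKM over the 6 libraries, the highest was Rplp1 at 206 ± 29.8 (SD, n = 6), a protein of the acidic stalk that recruits translation factors. It was followed by Rpl41, which encodes the smallest protein of the ribosome, at 181 ± 22.8 RPKM, and by Rps3a1 at 112 ± 15.3 RPKM. Rpl36 at 107 ± 27.9, Rps15 at 95.3 ± 8.77, Rplp0 at 93.2 ± 13.8, Rpl37a at 89.2 ± 21.9 and Rpl8 at 84.5 ± 12.2 RPKM completed the highest 8. Neighbours in this order differed by less than the larger of their SDs, apart from Rpl41 and Rps3a1. These SDs hold differences between libraries that neighbours can share, and Rplp1 lay above Rpl41 in each library. The exon length implied by count and RPKM ran between 383 bp for Rpl36 and 6270 bp for Rps15a, while ribosomal protein mRNAs are mostly short. A long model with retained introns or distant exons lowers RPKM for the same count, so the order is that of these models.

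Between the diets 7 of these 8 members had overlapping ranges, and Rpl36 did not. Rplp1 had 234, 188 and 209 CPM (counts scaled to library size) in ZnD, against 216, 162 and 232 CPM in Control, a log2 fold change of 0.047 ± 0.16 (SE), and of −0.030 without ZnD replicate 4. That library lay just above the highest Control library, and the other ZnD libraries lay inside the Control range. Its stalk partner Rplp0 averaged 298 ± 16.0 CPM in ZnD and 324 ± 56.9 CPM in Control (SD, n = 3 each), with overlapping ranges. Rpl41 had a log2 fold change of −0.0083 (−0.072 without ZnD replicate 4), Rpl8, which lines the peptide-joining centre, one of 0.089, and Rps15, a small subunit protein near the decoding site, one of −0.036 (0.020 without ZnD replicate 4). Rps3a1, a small subunit protein at the mRNA exit, had 216, 196 and 195 CPM in ZnD, against 262, 200 and 265 CPM in Control. ZnD replicate 4 lay above Control replicate 5, so the ranges overlapped, and the log2 fold change was −0.26 ± 0.14 (SE; edgeR adjusted p = 0.465). Without Control replicate 5 the log2 fold change was −0.094 for Rplp1, −0.14 for Rpl41, −0.38 for Rps3a1 and 0.28 for Rpl36. In that setting it was −0.020 for Rps15, −0.26 for Rplp0, −0.39 for Rpl37a and −0.037 for Rpl8.

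Separate diet ranges, with every ZnD library on 1 side of every Control library, were found for 6 of the 80 members (7.5%), against 18.9% of all tested genes. The 3 higher in ZnD were Rpl13a, Rpl36 and Rplp2, where 9.56% of all tested genes were separate in that direction. The 3 lower in ZnD were Rpl22l1, Rpl26 and Rpl37, where 9.31% of all tested genes were. All 6 encode large subunit proteins, and 0 of the 32 small subunit genes had separate ranges. The difference between the subunits in this count was not tested, and none of the 6 passed the test adjusted over all genes.

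Rpl26, on chromosome 11 (68792409 to 68797815 as the deposited table gives it, plus strand; ENSMUSG00000060938), had the smallest p of the members. Its protein sits beside the exit of the peptide tunnel. It had 94.4, 99.9 and 104 CPM in ZnD, against 144, 116 and 146 CPM in Control. All ZnD libraries lay below the lowest Control library, replicate 5. The log2 fold change was −0.45 ± 0.13 (SE), with an unadjusted p of 0.00461 and an adjusted p of 0.213 in edgeR. Over 16 alternative settings it ran between −0.55 and −0.32, negative in each.

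Rpl37, on chromosome 15 (5146127 to 5148622, plus strand; ENSMUSG00000041841), encodes a small zinc-binding protein of the large subunit. It had 45.5, 55.5 and 54.7 CPM in ZnD, against 71.1, 60.0 and 63.6 CPM in Control. The highest ZnD library, replicate 5, lay below the lowest Control library. This gave a log2 fold change of −0.32 ± 0.13 (SE; edgeR unadjusted p = 0.0347, adjusted p = 0.350). Without ZnD replicate 4 it was −0.23 ± 0.12 (SE), with an unadjusted p of 0.0912 in edgeR. A snoRNA gene is listed within its span.

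The other members given above as examples of zinc-binding proteins had fold changes of both signs. Rpl37a had 339, 173 and 188 CPM in ZnD, against 277, 228 and 333 CPM in Control. ZnD replicate 4 was the highest and ZnD replicate 5 the lowest of all 6 libraries, and the log2 fold change was −0.26 ± 0.25 (SE; edgeR adjusted p = 0.710). Rps27 had 68.2, 96.7 and 96.9 CPM in ZnD, against 102, 84.4 and 112 CPM in Control, with overlapping ranges and a log2 fold change of −0.19 ± 0.16 (SE). Without ZnD replicate 4, its lowest library, it was −0.030 ± 0.13 (SE). Rps29 had 77.6, 102 and 109 CPM in ZnD, against 88.4, 79.2 and 85.2 CPM in Control. Here ZnD replicates 5 and 6 lay above the Control libraries and ZnD replicate 4 below them, and the log2 fold change was 0.19 ± 0.14 (SE). Without ZnD replicate 4 it was 0.33 ± 0.11 (SE; edgeR unadjusted p = 0.0126, adjusted p = 0.291). Members were not grouped by zinc-binding motifs in their proteins, which was not analysed here.

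Rpl36, on chromosome 17 (56920416 to 56921243, plus strand; ENSMUSG00000057863), had the smallest p among members with a positive fold change. It had 80.1, 92.7 and 105.8 CPM in ZnD, against 76.6, 59.0 and 75.9 CPM in Control. The lowest ZnD library, replicate 4, lay just above the highest Control library. This gave a log2 fold change of 0.40 ± 0.15 (SE; edgeR unadjusted p = 0.0208, adjusted p = 0.313). Without ZnD replicate 4 it was 0.50 ± 0.14 (SE; edgeR unadjusted p = 0.00549, adjusted p = 0.233).

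Rpl13a, whose protein also leaves the ribosome to silence inflammatory mRNAs in myeloid cells, had 308, 285 and 317 CPM in ZnD, against 258, 227 and 266 CPM in Control. Its lowest ZnD library, replicate 5, lay above its highest Control library, replicate 6, and the log2 fold change was 0.28 ± 0.13 (SE; edgeR adjusted p = 0.390). The gene holds 3 listed snoRNA genes within its span. Rplp2, the partner of Rplp1 in the stalk, had 104, 98.9 and 94.5 CPM in ZnD, against 89.5, 78.9 and 87.2 CPM in Control. All ZnD libraries lay above the highest Control library, replicate 4, and the log2 fold change was 0.22 ± 0.12 (SE; edgeR adjusted p = 0.461). The 3 stalk genes thus had values of 0.22 (Rplp2), 0.047 (Rplp1) and −0.12 (Rplp0) on the log2 fold change scale.

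Divergent copies of ribosomal proteins can replace the common form in some tissues, and 6 of the 7 listed were in the table, with 3 tested. Rpl22l1, on chromosome 3 (28859585 to 28861573, plus strand; ENSMUSG00000039221), encodes the copy of RPL22 that can take its place in the large subunit. It had 11.7, 12.8 and 10.4 CPM in ZnD, against 19.5, 16.2 and 15.7 CPM in Control. All ZnD libraries lay below the lowest Control library, replicate 6. Its log2 fold change was −0.56 ± 0.18 (SE; edgeR unadjusted p = 0.0103, adjusted p = 0.258), the lowest of the 80 members. A gene on the other strand overlaps it, and the sources used here do not say whether the counting used strand.

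Rpl22 itself had 57.6, 58.5 and 68.3 CPM in ZnD, against 62.6, 54.7 and 59.8 CPM in Control, with overlapping ranges and a log2 fold change of 0.059 ± 0.13 (SE). Per length, Rpl22l1 stood at 29.7, 31.9 and 22.3% of Rpl22 RPKM in ZnD, against 45.6, 43.3 and 38.5% in Control. The ranges were separate, with means of 28.0 ± 5.0% in ZnD and 42.5 ± 3.6% in Control (SD, n = 3 each). The two-sided exact permutation test gave p = 0.1, the smallest p this design allows, and the ratio carries the same Rpl22l1 counts as the fold change above. The other pairs had overlapping ranges. Rps27l stood at 15.3 ± 4.0% of Rps27 in ZnD and 14.5 ± 2.4% in Control, and Rpl7l1 at 11.2 ± 0.41% of Rpl7 in ZnD and 11.1 ± 0.83% in Control (SD, n = 3 each; exact permutation test, p = 0.9 for each). The copies Rpl3l, known from muscle, and Rpl10l and Rpl39l, known from testis, were at or near a floor of 3 counts, which was 0.160 to 0.256 CPM by library.

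**Figure D3:**
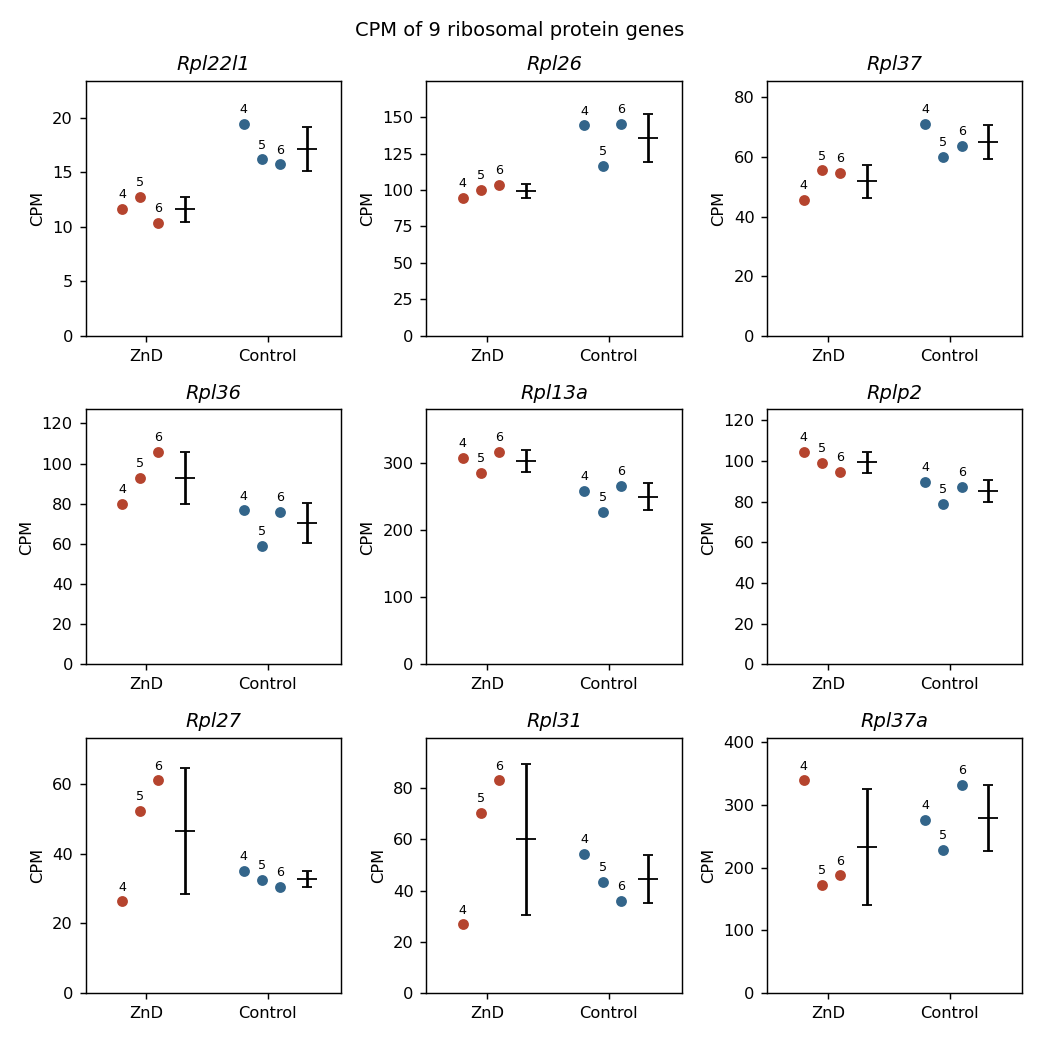
CPM of 9 ribosomal protein genes is plotted per library (points, numbered by replicate) with the mean and SD of each diet (black), ZnD at left of Control in each panel and each axis starting at 0. The upper 6 genes have separate diet ranges, and in the lower 3 genes ZnD replicate 4 lies far from ZnD replicates 5 and 6.

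In some members with large positive fold changes, 1 ZnD library lay far from the other ZnD libraries. Rpl31, whose protein lies at the tunnel exit, had 26.8, 70.3 and 83.0 CPM in ZnD, against 54.3, 43.4 and 35.9 CPM in Control. Rpl27, also of the large subunit, had 26.3, 52.5 and 61.1 CPM in ZnD, against 35.0, 32.6 and 30.4 CPM in Control. In both genes ZnD replicate 4 lay below all Control libraries while ZnD replicates 5 and 6 lay above them. Rpl31 had a log2 fold change of 0.44 ± 0.41 (SE) and Rpl27 one of 0.52 ± 0.26 (SE). Without ZnD replicate 4 they were 0.79 ± 0.17 (SE; edgeR adjusted p = 0.133) and 0.80 ± 0.13 (SE; edgeR adjusted p = 0.0826). Rps7, a small subunit protein needed to process the small subunit's RNA, had 85.1, 115 and 133 CPM in ZnD, against 103, 75.7 and 82.2 CPM in Control. ZnD replicate 4 lay inside the Control range and ZnD replicates 5 and 6 above it. Its log2 fold change was 0.36 ± 0.17 (SE; edgeR adjusted p = 0.421), and 0.52 ± 0.14 (SE; edgeR adjusted p = 0.231) without ZnD replicate 4.

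Across the family ZnD replicate 4 had the lowest CPM of the ZnD libraries for 56 of the 80 members and the highest for 20. Rpl31, Rpl27 and Rps27l in that library stood at 0.349, 0.464 and 0.466 of the mean of ZnD replicates 5 and 6. In the other direction Rpl37a stood at 1.88 of that mean, Rps9 at 1.53 and Rps2 at 1.41, so the library was not low throughout. Rps9, a small subunit protein at the mRNA entry, had 394, 250 and 265 CPM in ZnD, against 275, 213 and 313 CPM in Control, and ZnD replicate 4 was the highest of the 6 libraries. Rps2 had 168, 113 and 126 CPM in ZnD, against 115, 87.3 and 133 CPM in Control, with the same library highest. Rps27l, the divergent copy of Rps27, had 6.10, 11.4 and 14.8 CPM in ZnD, against 11.8, 7.94 and 14.6 CPM in Control. Here ZnD replicate 4 was the lowest of the 6 and ZnD replicate 6 the highest, and the log2 fold change was −0.086 with ZnD replicate 4 and 0.19 without it. Rps2, Rps9, Rplp2, Rpl28, Rps15a, Rpl7, Rpl10 and Rpl22 were named after their values were seen. Control replicate 5 was the lowest Control library for 67 of the 80 members and the highest for 0. The like counts over all tested genes were not made. Whether this order of libraries is particular to the members was therefore not tested. The median coefficient of variation within a diet was 12.5% in ZnD and 12.7% in Control over the 80 members. It was 12.01% in ZnD and 11.8% in Control over the 10551 tested genes in the same CPM range.

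Without ZnD replicate 4, 17 of the 80 members had an unadjusted p under 0.05 in edgeR (21.25%), against 11.9% of the 19056 genes then tested. That library is set apart here because it lay far from the other ZnD libraries in these same members. Leaving it out narrows their spread, so this count was not an independent test. Without Control replicate 4, 5 or 6 the count was 3, 5 and 5 of the 80. The share of all genes at that p was not counted for those settings. The counts without ZnD replicate 5 or 6 are not reported here, so whether 17 is particular to ZnD replicate 4 was not tested. Of the 17 members without ZnD replicate 4, 14 were positive, 6 of the large and 8 of the small subunit. The other 3 were negative, all of the large subunit (Rpl22l1, Rpl26 and Rpl37a). With ZnD replicate 4 the 4 members at that p were Rpl36 on the positive side and Rpl22l1, Rpl26 and Rpl37 on the negative side. Members where that library was high or low changed most when it was left out. Rpl37a then had a log2 fold change of −0.63 ± 0.16 (SE; edgeR adjusted p = 0.203), against −0.26 with it. Rps19 had 0.38 without it and 0.22 with it, Rpl11 0.033 without it and 0.21 with it, and Rps25 −0.096 without it and −0.29 with it. An adjusted p at 0.05 was reached without that library by 1 of the 80 members and by 22 genes in all (0.115%).

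**Figure D4:**
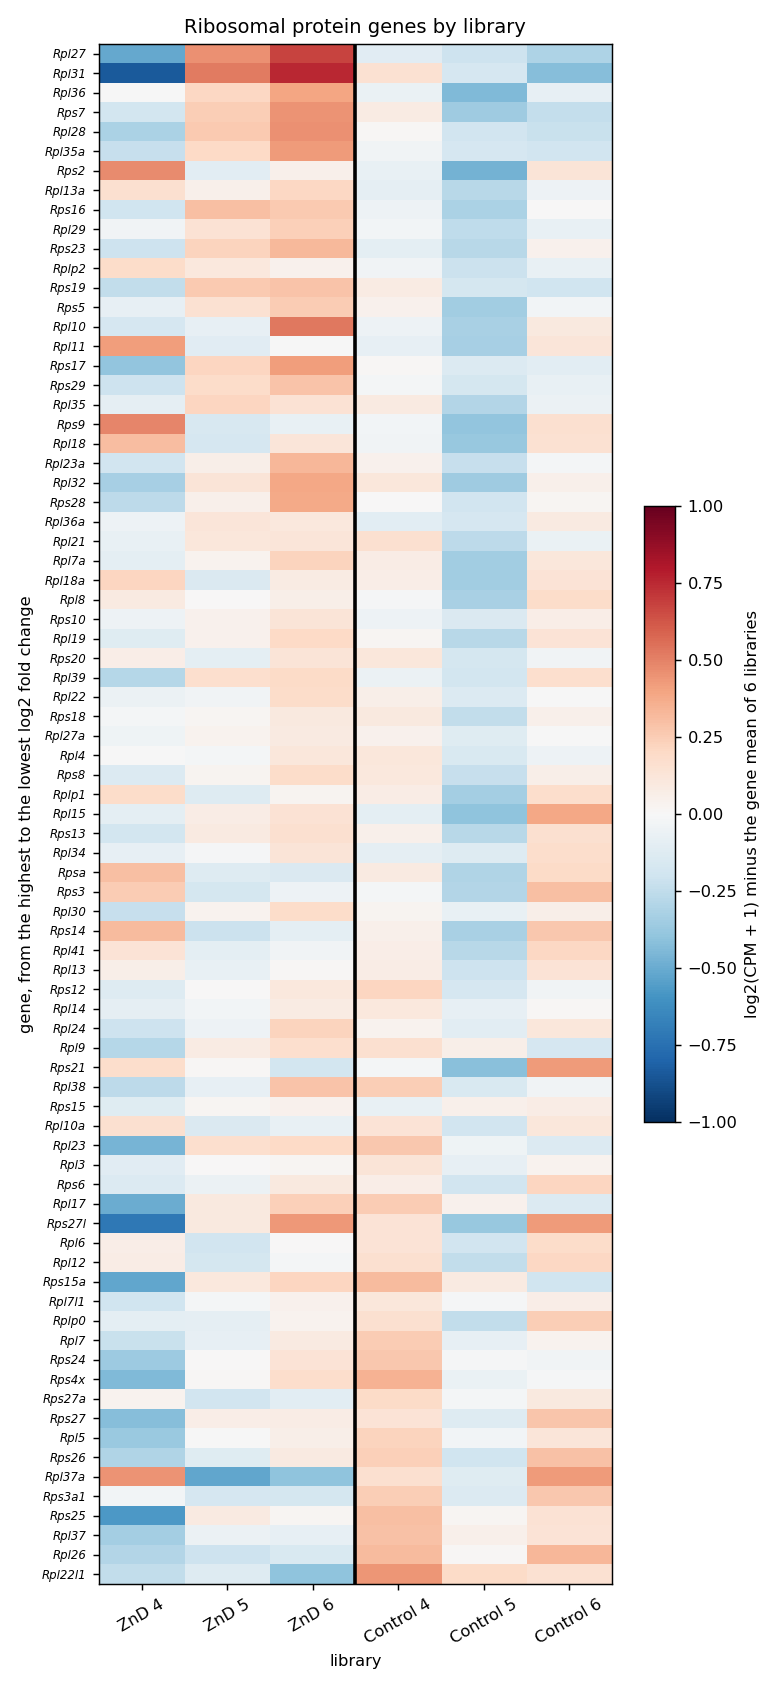
Each row is 1 of 79 tested ribosomal protein genes, ordered by log2 fold change, and each column a library, ZnD at left of the line and Control at right; colour gives log2(CPM + 1) minus the gene's mean over the 6 libraries. ZnD replicate 4 is the lowest of the ZnD columns in most rows and is high in others such as Rpl37a, and Control replicate 5 is the lowest Control column in most rows.

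Other members with known roles outside bulk synthesis had overlapping diet ranges. Rpl5 and Rpl11, whose proteins bind MDM2 when ribosome assembly is disturbed, had ZnD replicate 4 at opposite ends of their ranges. Rpl5 had 114, 148 and 154 CPM in ZnD, against 172, 145 and 160 CPM in Control (log2 fold change −0.20 ± 0.14, SE; edgeR adjusted p = 0.584). Rpl11 had 260, 179 and 193 CPM in ZnD, against 184, 154 and 211 CPM in Control (0.21 ± 0.17, SE; edgeR adjusted p = 0.648). ZnD replicate 4 was the lowest of the 6 libraries for Rpl5 and the highest for Rpl11. Without it the log2 fold change was −0.073 ± 0.12 (SE) for Rpl5 and 0.033 ± 0.14 (SE) for Rpl11. Rps6, the protein phosphorylated downstream of mTOR, had 198, 210 and 234 CPM in ZnD, against 229, 191 and 253 CPM in Control, and all ZnD libraries lay inside the Control range. Its log2 fold change was −0.066, and −0.0083 without ZnD replicate 4. Rps19, mutated in human Diamond-Blackfan anaemia, had 60.7, 86.4 and 88.0 CPM in ZnD, against 76.3, 63.5 and 62.6 CPM in Control. ZnD replicate 4 was its lowest library, and the log2 fold change was 0.22 ± 0.16 (SE; edgeR adjusted p = 0.603). Rpl38, which mouse embryos need for translation of Hox mRNAs, had a log2 fold change of −0.031 ± 0.17 (SE), and of 0.091 ± 0.16 (SE) without ZnD replicate 4. Rps25, which many viral internal ribosome entry sites require, had 50.7, 81.2 and 77.4 CPM in ZnD, against 94.0, 77.3 and 84.2 CPM in Control. The ranges overlapped through Control replicate 5, and its log2 fold change was −0.29 ± 0.17 (SE; edgeR adjusted p = 0.514).

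Lists of genes around the ribosome gave 0 calls too. Of 4 ribosomal proteins whose gene names fall outside the rule, 0 passed the test, with a median log2 fold change of 0.12. Fau, which fuses a ubiquitin-like protein to a small subunit protein, stood at 0.19, Rpl36al at 0.043 and Rack1 at 0.016. Without ZnD replicate 4 Fau stood at −0.075, Rpl36al at 0.21 and Rack1 at 0.045. Of 18 translation factors and other TOP mRNAs, 0 passed, with a median log2 fold change of 0.038 and 0 at an unadjusted p under 0.05. Among them the elongation factor Eef1a1 had 1966, 1921 and 2007 CPM in ZnD, against 2554, 2040 and 2555 CPM in Control, with separate ranges and a log2 fold change of −0.28 ± 0.17 (SE; edgeR adjusted p = 0.509). The elongation factor Eef2 had 1150, 1121 and 1224 CPM in ZnD, against 1043, 895 and 1110 CPM in Control, with separate ranges in the other direction and a log2 fold change of 0.20 ± 0.15 (SE). Eif3f, a subunit of an initiation factor, was the only other gene of the list with separate ranges, also higher in ZnD (0.21 ± 0.12, SE). It was named after its values were seen. Separate ranges in either direction were thus found for 3 of the 18 genes (16.7%), against 18.9% of all tested genes. Tpt1 stood at 0.15, or 0.36 without ZnD replicate 4 and −0.060 without ZnD replicate 6. Npm1 stood at −0.044, or 0.032 without ZnD replicate 4. The 6 TOP host genes of snoRNAs had 0 past the test and a median of −0.020, with Gas5 at −0.076 (0.028 without ZnD replicate 4).

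Of 37 ribosome assembly factors 0 passed, with a median log2 fold change of 0.012, 19 positive and 18 negative, and 0 at an unadjusted p under 0.05. Of 18 genes of the mTOR pathway and the La-related proteins 0 passed, with a median of 0.029. Mtor stood at 0.016 and Larp1 at 0.060 on that scale, and without ZnD replicate 4 Mtor stood at 0.060 and Larp1 at −0.0022. An unadjusted p under 0.05 was found there for 2 of the 18 genes (11.1%), against 12.9% of all tested genes, and these were named after their values were seen. Ddit4, an inhibitor of mTOR complex activity induced by stress, had 63.3, 89.9 and 72.3 CPM in ZnD, against 35.4, 42.4 and 61.1 CPM in Control (log2 fold change 0.70 ± 0.20, SE; edgeR adjusted p = 0.216). Larp4, which protects the poly(A) tails of mRNAs, had 44.6, 52.2 and 51.3 CPM in ZnD, against 77.1, 60.6 and 73.5 CPM in Control (−0.51 ± 0.14, SE; edgeR adjusted p = 0.187).

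By position 14 of the 83 members lay on chromosome 7, and the share of all listed genes on that chromosome was not counted. A snoRNA gene was listed within the span of 24 of the 83 members (28.9%), 16 of the large and 8 of the small subunit, against 0.516% of the 18411 tested genes other than snoRNA rows. The spans of 22 members were overlapped by a gene on the other strand, and the share over all genes was not counted. Processed pseudogenes nearly identical to these genes are common in the mouse genome, and the sources used here do not say how shared reads were placed, so single members are uncertain. Of 8 rows named as such a pseudogene 3 had counts, and Rpl10-ps3, named after its values were seen, had 1763, 2997 and 3226 counts in ZnD, against 2627, 2059 and 3054 counts in Control. This was 2.15 to 3.91 times the counts of Rpl10 in the same libraries, and the row's log2 fold change was −0.27 (edgeR adjusted p = 0.475).

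The libraries held 14397826, 16163294 and 18727863 counts in ZnD, against 13059798, 11731999 and 16748740 counts in Control. All 10 markers of mature olfactory neurons were detected, with summed levels of 8423 to 10076 CPM in ZnD and 6258 to 7602 CPM in Control, so the labelled nasal tissue holds olfactory epithelium. Other lists of cell type markers differed in summed level between diets or between libraries of a diet. The summed levels were 1556 to 4311 CPM in ZnD and 558 to 1877 CPM in Control for erythroid genes (11 of 12 tested, median log2 fold change 1.32). For osteoblasts they were 6582 to 13747 CPM in ZnD and 11975 to 20308 CPM in Control (12 of 12 tested, −0.67). Neutrophil precursor genes (10 of 10 tested, median 1.78) summed to 623 to 1426 CPM in ZnD and 396 to 2405 CPM in Control. Separate ranges higher in ZnD were found for 7 of these 10 genes (70%), against 9.56% of all tested genes. Ltf, the most abundant of them (log2 fold change −1.01), gave 281 to 1196 CPM in ZnD and 342 to 2395 CPM in Control, and the other 9 genes summed to 231 to 342 CPM in ZnD and 10.1 to 167 CPM in Control. Developing B cell genes (10 of 12 tested, median 1.73, with 1 gene past the test) summed to 210 to 309 CPM in ZnD and 151 to 247 CPM in Control. Most of that sum was Ebf1 (0.22), named like Ltf after its values were seen, and the other 9 tested genes summed to 28.5 to 89.2 CPM in ZnD and 15.5 to 39.1 CPM in Control. The median was 0.37 for immature olfactory neurons (8 of 8 tested), 0.17 for sustentacular cells (8 of 8), −0.28 for ciliated cells (8 of 8) and 0.56 for skeletal muscle (4 of 10). ZnD replicate 4 had the highest mean log2(CPM + 1) of the 6 libraries for erythroid genes (6.51) and for muscle genes (1.73). The part of these cell mixtures in the values of the ribosomal protein genes was not tested.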

How the data were processed

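Total RNA (500 ng a library) of 3 ZnD and 3 Control libraries was depleted of ribosomal RNA with a version 2 kit and made into libraries with NEBNext Ultra II, per the labels' protocols. The authors deposited a table of 41709 genes with whole-number counts and RPKM per library, per the file headers. The sources used here give no aligner, counting tool, strand setting, build or annotation. The 12 further columns of per-library values (TPM and CPM) and the authors' own comparison were not used. No row lacked a gene name. For 18427 genes the counts were tested in R 4.3.3 with the quasi-likelihood F test of edgeR 4.0.16 (robust, TMM, filterByExpr). The model held diet alone, and two-sided p-values were adjusted by Benjamini-Hochberg at 0.05 over all tested genes. CPM uses the TMM-scaled library size. Floors use the column total and cover counting error only. Standard errors are the absolute log2 fold change divided by the root of F. RPKM served for levels between genes and copy ratios. It also served, with a pseudocount of 1 and genes whose mean RPKM reached 1 in either diet, for limma 3.58.1. Exon length was derived from count and RPKM, scaled on 1899 genes whose length equals their span. Alternatives were a replicate block, each library left out, other scalings and filters, DESeq2 1.42.0, limma-voom and added pseudogene counts. The edgeR step was tested on simulated data, with planted changes larger than those of any member and the same spread set for all genes. That test does not show whether changes of the members' size would be called. Every pair of libraries within a diet differed beyond sampling noise. Members and gene lists were chosen with earlier results of these data known. Genes named were the 8 members of highest mean RPKM, the 5 highest and 5 lowest fold changes at 10 CPM or more, the divergent copies, the 4 smallest p in each direction, a fixed set of 10 members and 11 related genes, and those said to be named after their values were seen; some genes that the rule takes are not reported here.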

Additional observations from a re-analysis of the deposited data

How the results depend on the processing

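Over 16 alternative settings the count of members past the test stayed at 0, except that leaving out each library gave 0 to 1 (1 without ZnD replicate 4). The count over all tested genes ran between 6 (limma-voom) and 343 (DESeq2), against 22 as reported. The replicate numbers did not pair the libraries (correlation of deviations −0.048, 0.15 and 0.068 for replicates 4, 5 and 6). With the replicate block 0 members and 153 genes in all passed, and the medians were 0.056 for the large and 0.031 for the small subunit. There 3 members had an unadjusted p under 0.05, and the share of all genes at that p was not counted. The median log2 fold change ran between −0.037 and 0.10 for the large subunit and between −0.064 and 0.14 for the small subunit when each library was left out. Both were negative without Control replicate 5, and the large subunit's also without ZnD replicate 6 (−0.011). Limma on log2(RPKM + 1) moved the median of all genes to 0.095, with 0.16 for the large and 0.14 for the small subunit and 64 of 80 members positive, against 46 as reported. The difference in the large to small subunit ratio, ZnD minus Control, was −0.0017 by counts, −0.0123 to 0.0124 with each library left out and 0.0235 by summed RPKM. The difference in the share of counts ran between 0.014 and 0.094 percentage points with each library left out, against 0.048 as reported. Of 26 named members with a fold change, 18 kept their sign in all 16 settings. Many of the 26 were named for a large fold change or a small p in these libraries, and the settings reuse the libraries. The 18 are therefore no measure of how stable the family's signs are. The cause of these changes was not tested. With 3 libraries a diet, standard errors of 0.12 to 0.41 limit what could be called for single members.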
